A study of Mus musculus with 24 samples.

Results

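Visceral (perigonadal) fat of control male and female mice was compared by bulk RNA sequencing, with 4 libraries of each sex and autosomal genes only. These 8 libraries are the ones whose column names in the raw count table start with WT_M and WT_F, out of 24 libraries in the series. Control mice were labelled Foxp3cre, so they carried Cre recombinase driven by Foxp3, the regulatory T cell gene, with no further allele named. The other 16 libraries came from males and females labelled PpargFoxp3cre or TbetFoxp3cre, which carry the same Cre and in which Pparg or the gene of T-bet is deleted in cells that express it. All mice were 27 to 33 weeks old, and no treatment is named. Each group of 4 held 2 libraries of batch 1 (replicates 1 and 3) and 2 of batch 2 (replicates 2 and 4), as the titles number them. For control female replicate 1 the title gives batch 1 and the source name batch 2; the title was followed. The sources used here do not state whether each library is a different animal; the tests therefore weigh differences against the variation among libraries, which may be technical.

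Visceral fat is a mixture of lipid-filled adipocytes with stromal progenitors, endothelial cells, macrophages and lymphocytes, and in mice the perigonadal pad lies against the reproductive tract. Sex hormones act on it through nuclear receptors, and local enzymes activate or inactivate steroids within the tissue. Adipocytes store fatty acids taken up from blood or made from sugar by lipogenic enzymes, and they signal their lipid content with the hormone leptin. Macrophages gather around enlarged or dying adipocytes. In bulk tissue, fewer cells of a type and less RNA per cell cannot be told apart.

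The libraries held between 14250142 and 30769949 counts in control females and between 15789476 and 24775804 in control males. Sex labels were checked first. Xist, the X-inactivation RNA, was at 549, 883, 703 and 1148 CPM (counts normalised to library size by the trimmed mean of M values, TMM) in female replicates 1 to 4 and at 0.142, 0.992, 0.28 and 0.333 CPM in males. The Y-linked Ddx3y, Uty, Kdm5d and Eif2s3y were at or below 0.0793 CPM in each female library, and the lowest male value of any of them was 14.2 CPM, for Kdm5d. No library went against its sex label.

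Several libraries stood apart from the others of their sex. Female replicate 1 held transcripts of oviduct and ciliated epithelium: Ovgp1, the oviduct secretory glycoprotein, was at 4629, 2.89, 3.78 and 2.67 CPM in females and at 3.03, 4.15, 1.96 and 3.37 CPM in males. Foxj1, the master regulator of motile cilia, was at 376, 0.0396, 0.724 and 0.15 CPM in females and at 0.663, 91.5, 0.0935 and 42.9 CPM in males, so male replicates 2 and 4 also held ciliated epithelial transcripts. The epithelial surface gene Epcam followed the same libraries, at 148, 0.595, 0.661 and 2.22 CPM in females and 0.899, 45.7, 0.888 and 24.9 CPM in males. Male replicate 1 alone held much Prm2, a sperm protamine, at 149, 1.36, 0.0935 and 10.5 CPM over the 4 males against 0 counts in every female library, and male replicate 3 held 29 CPM of Crisp1, an epididymal secretory gene that lay at or below 0.159 CPM in the other 7 libraries. The motile cilia list (23 genes tested) summed to 1509, 27.9, 53.4 and 32.4 CPM in females and to 60.9, 568.2, 16.8 and 262.2 CPM in males, and 0 of its members were called.

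Adipocyte content also differed between libraries. The defining adipocyte genes were abundant in all 8: Adipoq, which encodes adiponectin, was at 659, 3844, 1694 and 2898 CPM in females and at 2723, 1528, 2740 and 2379 CPM in males, and the lipid droplet coat gene Plin1 was at 250.1, 1935, 555 and 1830 and 1544, 1486, 1636 and 1838 CPM. Both ran low in female replicates 1 and 3, the batch 1 females. The 25 mature adipocyte genes summed to 15240, 90200, 33680 and 68410 CPM in females and to 79960, 56180, 91180 and 79540 CPM in males. The 13 smooth muscle genes went the other way, with 9490, 4926, 15160 and 3861 CPM in females against 1731, 1424, 1740 and 1160 CPM in males. Batch 1 females therefore had the least adipocyte and the most smooth muscle transcript, and the part of this in the sex differences below was not tested, except where values within batch 2 are given.

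**Figure D1:**
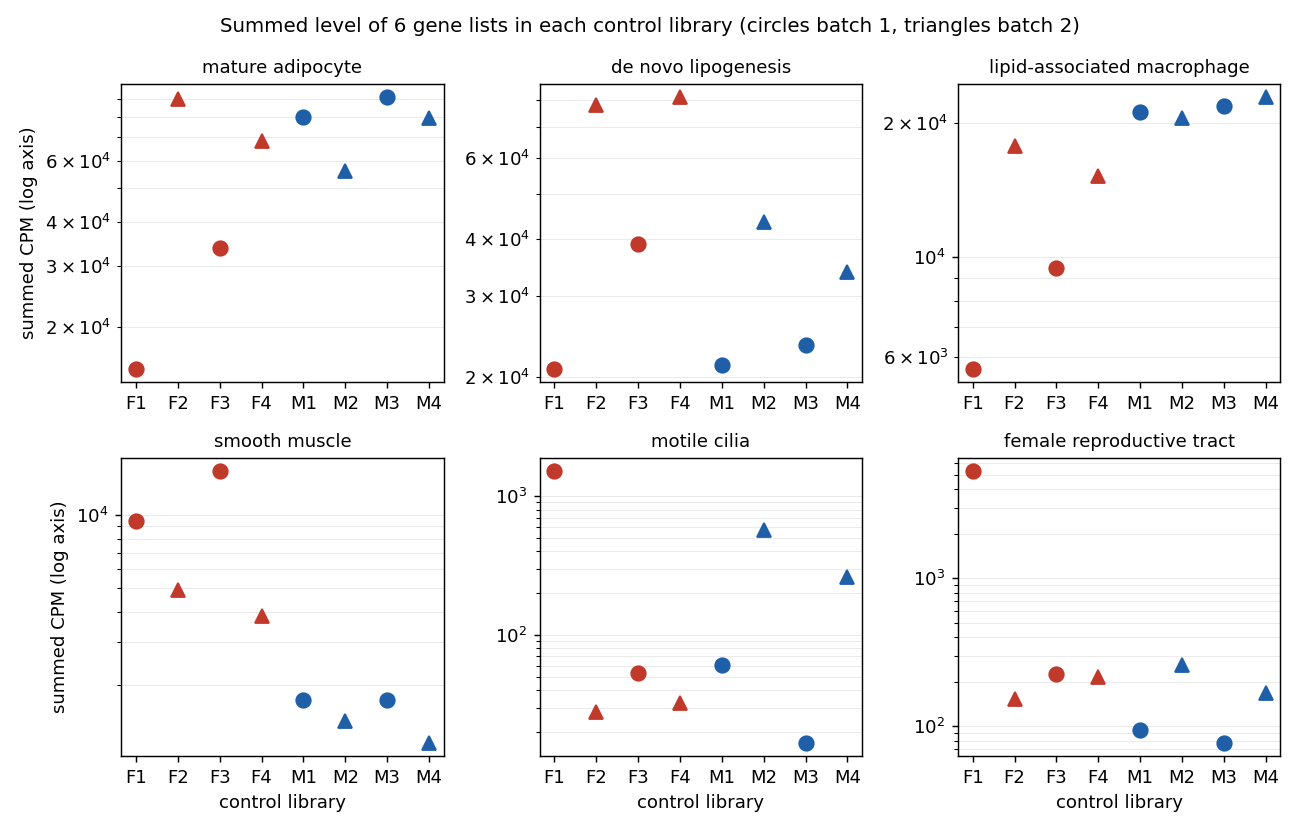
Summed CPM (log axis) of 6 gene lists in each control library, females in red (F1 to F4) and males in blue (M1 to M4), circles for batch 1 and triangles for batch 2. Smooth muscle transcript was highest in F3 (15160 CPM), adipocyte transcript lowest in F1 (15240 CPM), and motile cilia and reproductive tract transcripts highest in F1 (1509 and 5287 CPM).

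Control males and females differed at 4572 of 16639 autosomal genes tested, or 27.5%, at a Benjamini-Hochberg adjusted p under 0.05 in edgeR's quasi-likelihood test with batch as a covariate (below, "called"). Of these, 2299 were higher in males (13.8%) and 2273 in females (13.7%). Counts of called list members below are to be read beside these shares. Within batch 1, 32.8% of genes tested were called, and within batch 2, 7.35% (3.61% male-higher and 3.73% female-higher). These fits of 1 batch alone, here and below, also held that batch's knockout libraries, which add to the estimate of the spread. Of the calls, 654 (3.93% of genes tested) were also called in each batch alone. The direction was the same in both batches for 4448 of 4518 called genes tested in both. Because the calls came from both batches together, this agreement was largely set by the selection. The difference was over 10-fold for 156 male-higher and 213 female-higher genes. The 4 male and 4 female libraries did not overlap for 2297 of the called genes, and for 15.8% of all genes tested. Lack of overlap was required of the genes named below for the largest differences, so for them it is no separate support. The count was 2910 without male replicate 1, 3060 without female replicate 3 and 1819 without female replicates 1 and 3, an alternative chosen after seeing the data.

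**Figure D2:**
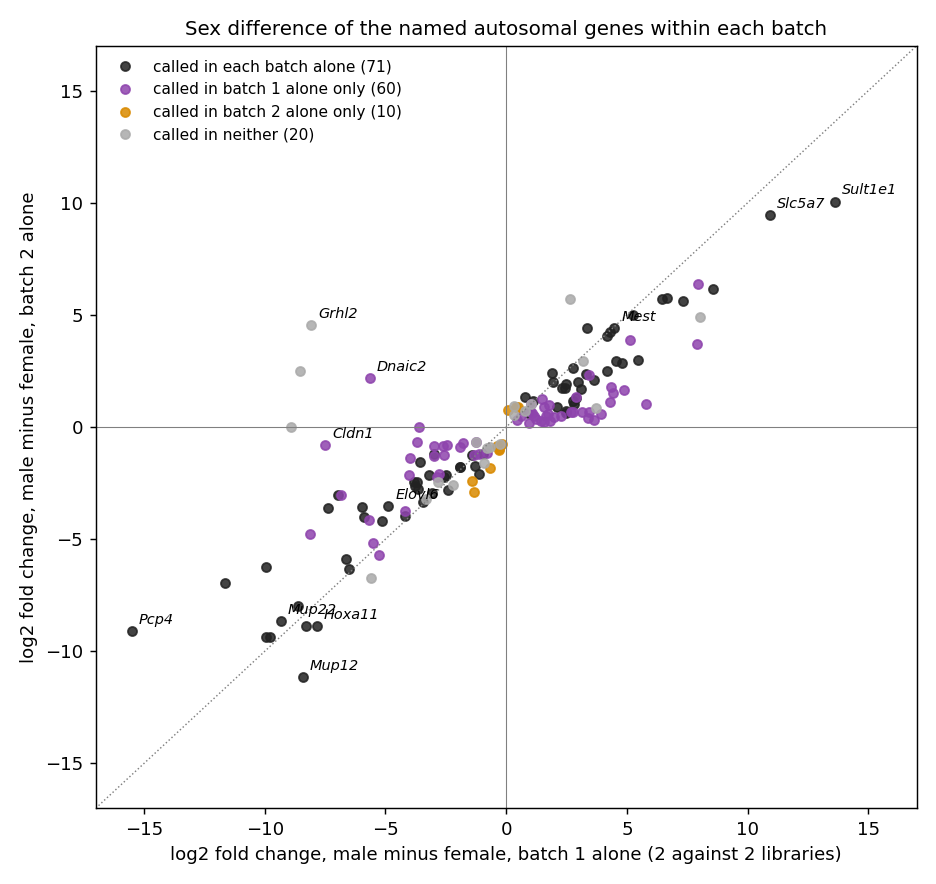
Log2 fold changes (male minus female) of 161 autosomal genes named by rule, in batch 1 alone (x axis) and batch 2 alone (y axis). Each compares 2 male and 2 female control libraries, with the spread estimated also from the knockout libraries of that batch. Colours show whether genes were called in each batch. Of these, 71 were called in each batch, 60 in batch 1 only, 10 in batch 2 only and 20 in neither, and 4, among them the ciliary gene Dnaic2 and the epithelial gene Grhl2, had opposite signs.

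Among the female-higher genes were the major urinary protein (Mup) genes, a cluster on chromosome 4 that encodes small pheromone-binding lipocalins, known mainly from the liver of males, where growth hormone pulses drive them. In this fat the sexes stood the other way. All 18 Mup genes tested, 17 of the list Mup1 to Mup21 and Mup22, were called female-higher, and 14 of them were called in each batch alone. Over the 4 males, 6 of the 18 had 0 counts and 7 had 1 to 3. Those genes passed the count filter only through other libraries, and near-copies may share reads. The 18 calls are therefore not separate results to weigh against the 13.7% of all autosomal genes. Their summed level was 109.7, 155.9, 298 and 200.7 CPM in females and 0.805, 0.806, 0.327 and 1.46 CPM in males. Mup14 (chromosome 4, 61300037 to 61304089) was at 11.1, 8.48, 26.5 and 10.2 CPM in females against 0 counts in all 4 males, at least 415-fold higher in females by a floor of 3 counts over the group (adjusted p = 0.000413). Mup17 (chromosome 4, 61591929 to 61595865) was at 5.22, 9, 14 and 11.1 CPM in females and 0 in all males, at least 289-fold higher (adjusted p = 0.000965), and Mup15 was at 3.13, 8.4, 6.42 and 11.4 and 0 CPM, at least 211-fold higher (adjusted p = 0.000603). Mup22 was at 15.9, 27.4, 50.7 and 35.6 CPM in females and 0.0947, 0, 0 and 0.125 CPM in males. Every Mup gene tested separated the sexes without overlap.

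The Mup genes are near-copies, so the division of reads among them is uncertain, while their sum is less so. Of the 50-base words in each tested Mup gene's GENCODE transcripts, a median of 87.1% also occurred in another Mup gene (lowest 1.68%, Mup6, highest 100%, Mup15 and Mup22). No such word was unique to Mup15 or Mup22, so the counts given for each and the bound for Mup15 are uncertain. The fitted log2 fold changes had a median of −8.39, or −8.05 with genes of 0 to 3 male counts set to their bound or ratio. All autosomal genes had a median of −0.030. RefSeq promoter entries on GRCm38.p6 matched 12 of the 18 genes. The 250 bases before the entry's start are shown for 3 of them, because these genes had the same direction and share almost the whole stretch. The letters of the TATA box (TATATAA) are in capitals. All lie on the minus strand of chromosome 4, at 61439705-61439954 for Mup15, 61595833-61596082 for Mup17 and 61674095-61674344 for Mup18. For Mup17 the stretch overlaps the gene interval given above, so the entry's start lies inside that interval.
Mup15: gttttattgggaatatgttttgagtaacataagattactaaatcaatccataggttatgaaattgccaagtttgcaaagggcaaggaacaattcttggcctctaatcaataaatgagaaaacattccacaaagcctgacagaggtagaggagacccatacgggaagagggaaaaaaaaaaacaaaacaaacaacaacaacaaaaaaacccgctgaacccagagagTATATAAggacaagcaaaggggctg
Mup17: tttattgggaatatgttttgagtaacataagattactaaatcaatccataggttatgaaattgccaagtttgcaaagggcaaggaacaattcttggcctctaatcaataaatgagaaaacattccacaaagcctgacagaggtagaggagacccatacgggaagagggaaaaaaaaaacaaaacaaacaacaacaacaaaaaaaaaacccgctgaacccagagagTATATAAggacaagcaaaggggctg
Mup18: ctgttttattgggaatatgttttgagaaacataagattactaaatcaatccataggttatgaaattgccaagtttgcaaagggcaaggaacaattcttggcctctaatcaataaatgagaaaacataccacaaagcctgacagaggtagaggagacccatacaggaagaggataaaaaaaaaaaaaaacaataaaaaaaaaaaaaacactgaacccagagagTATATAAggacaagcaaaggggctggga
Aligned to Mup17, the Mup15 sequence was identical at 98.4% of columns and Mup18 at 94.8%, and the runs of a before the TATA box differed in length. The word TATATAA, searched on both strands, was in 9 of the 12 Mup promoters and in 3.04% of all 32851 promoter entries of this length. The STAT5 word TTCNNNGAA, which a growth hormone activated factor binds, was in 0 of the 12 and in 7.02% of all entries, and the palindromic estrogen response element was in 0 of the 12 and in 0.0639% of all. A missing word says only that these letters are not in this window.

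Enzymes that inactivate or activate steroids differed in both directions. Sult1e1, the sulfotransferase that inactivates estrogens, was nearly absent in females, at 0, 0.0396, 0 and 0.0376 CPM, and stood at 64, 53.8, 77.3 and 41.6 CPM in males. With 2 counts over the 4 females, the male to female ratio was 2970 (exact counting interval 822 to 24500), and the adjusted p was 8.05e-09. Sult1e1 lies on chromosome 5 (87575968 to 87591611). Hsd11b1, which regenerates active glucocorticoid, was at 23, 33.9, 19.9 and 23.9 CPM in females and 297, 109, 257 and 141 CPM in males (log2 fold change 2.85, SE 0.29, adjusted p = 6.45e-06). Both genes separated the sexes completely and were called in each batch alone.

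Other steroid enzymes were female-higher. Akr1c14, a 3-alpha-hydroxysteroid dehydrogenase that reduces dihydrotestosterone and progesterone metabolites, was at 94.3, 31.1, 132 and 107 CPM in females and 5.35, 5.83, 7.48 and 3.21 CPM in males (log2 fold change −4.05, SE 0.58, adjusted p = 0.000137). Cyp7b1, an oxysterol and steroid hydroxylase, was at 10.7, 4.56, 12.5 and 6.92 and 1.94, 1.8, 1.5 and 0.916 CPM (log2 fold change −2.42, adjusted p = 0.0004). Hsd17b1, which makes estradiol from estrone, was low in both sexes, at 1.97, 0.753, 2.45 and 0.489 CPM in females and 0.237, 0.186, 0.374 and 0.0833 CPM in males (log2 fold change −2.55, adjusted p = 0.00111). Of 21 steroid metabolism genes tested, 8 were called male-higher and 5 female-higher, with a median log2 fold change of 0.052.

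Among steroid receptors, Pgr, the progesterone receptor and a classic estrogen target, was nearly limited to females. It was at 67.2, 7.33, 35 and 26.1 CPM in females and 0, 0.434, 0.0935 and 0.0417 CPM in males (log2 fold change −7.80, SE 1.32, adjusted p = 0.000473), with no overlap. Esr1, the estrogen receptor alpha gene, was at 61.6, 63.8, 48.9 and 67.1 CPM in females but at 4.07, 51.6, 4.58 and 31.2 CPM in males, so only the batch 1 males were low. It was called female-higher (log2 fold change −2.02, SE 0.62, adjusted p = 0.0208), with −3.71 in batch 1 against −0.66 in batch 2, where the adjusted p was 0.416. Of 16 autosomal receptor genes tested, 2 were called male-higher and 4 female-higher, beside 13.8% and 13.7% of all genes. The male-higher Nr5a1, the regulator of steroidogenic cells, was at 0, 0.0396, 0 and 0.113 CPM in females and 1.47, 0.806, 1.22 and 1.33 CPM in males (adjusted p = 0.00327).

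Of 23 autosomal genes known to respond to androgen, 9 were called male-higher and 1 female-higher, beside 13.8% and 13.7% of all genes, with a median log2 fold change of 0.49. In batch 2 alone 2 were male-higher, 1 in each batch alone, and 3 without female replicates 1 and 3. Fkbp5, a chaperone gene induced by androgens and glucocorticoids, was at 41.6, 17.9, 25.3 and 16.5 CPM in females and 129, 100.1, 124 and 83.4 CPM in males (log2 fold change 2.12, SE 0.35, adjusted p = 0.000398), without overlap. Herc3 and Elk4 were also male-higher, with log2 fold changes of 0.66 and 1.21, but Herc3 did not pass in batch 1 alone (adjusted p = 0.103), nor Elk4 in batch 2 alone (adjusted p = 0.105). Of 22 estrogen response genes, 4 were called male-higher and 3 female-higher, Pgr among the latter. Of the 16 growth hormone response genes tested, 2 were called male-higher and 5 female-higher. The female-higher were Mup1, Mup2 and Mup3, the signalling inhibitor Socs2 (log2 fold change −1.05, adjusted p = 0.00871) and the fatty acid elongase gene Elovl3 (log2 fold change −3.27, adjusted p = 0.0171). The male-higher were Cux2 (log2 fold change 2.21, adjusted p = 0.0151) and Igfals, a carrier of circulating IGF1, at 18.4, 73.6, 50.6 and 52.9 CPM in females and 118, 148, 82.6 and 157 CPM in males (log2 fold change 1.38, adjusted p = 0.00608).

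Markers of fat expansion, a list of genes known to rise with adipocyte enlargement, were male-higher: 9 of 13 tested were called male-higher and 0 female-higher, beside 13.8% and 13.7% of all genes, and 6 were called in each batch alone. The median log2 fold change was 1.24, and 0.71 in batch 2 alone, and 5 were male-higher without female replicates 1 and 3. Sfrp5, a secreted Wnt inhibitor, was at 2.96, 4.6, 6.1 and 6.58 CPM in females and 549, 398, 425 and 216 CPM in males (log2 fold change 6.25, SE 0.86, adjusted p = 0.000107). Mest, the imprinted marker of fat pad growth (chromosome 6, 30733506 to 30748466), was at 22.4, 15.4, 17.2 and 37.6 and 524, 662, 371 and 456 CPM (log2 fold change 4.45, SE 0.55, adjusted p = 3.88e-05). Lep, which encodes leptin (chromosome 6, 29060221 to 29073876), was at 184, 789.6, 371 and 543 CPM in females and 5557, 3739, 4801 and 3881 CPM in males (log2 fold change 3.30, SE 0.45, adjusted p = 9.41e-05). The lowest male library of each of these 3 genes lay several-fold above the highest female library. Npr3, the natriuretic peptide clearance receptor, and Trp53inp2, an autophagy regulator, were male-higher by log2 fold changes of 2.45 and 2.21, also in each batch alone.

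**Figure D3:**
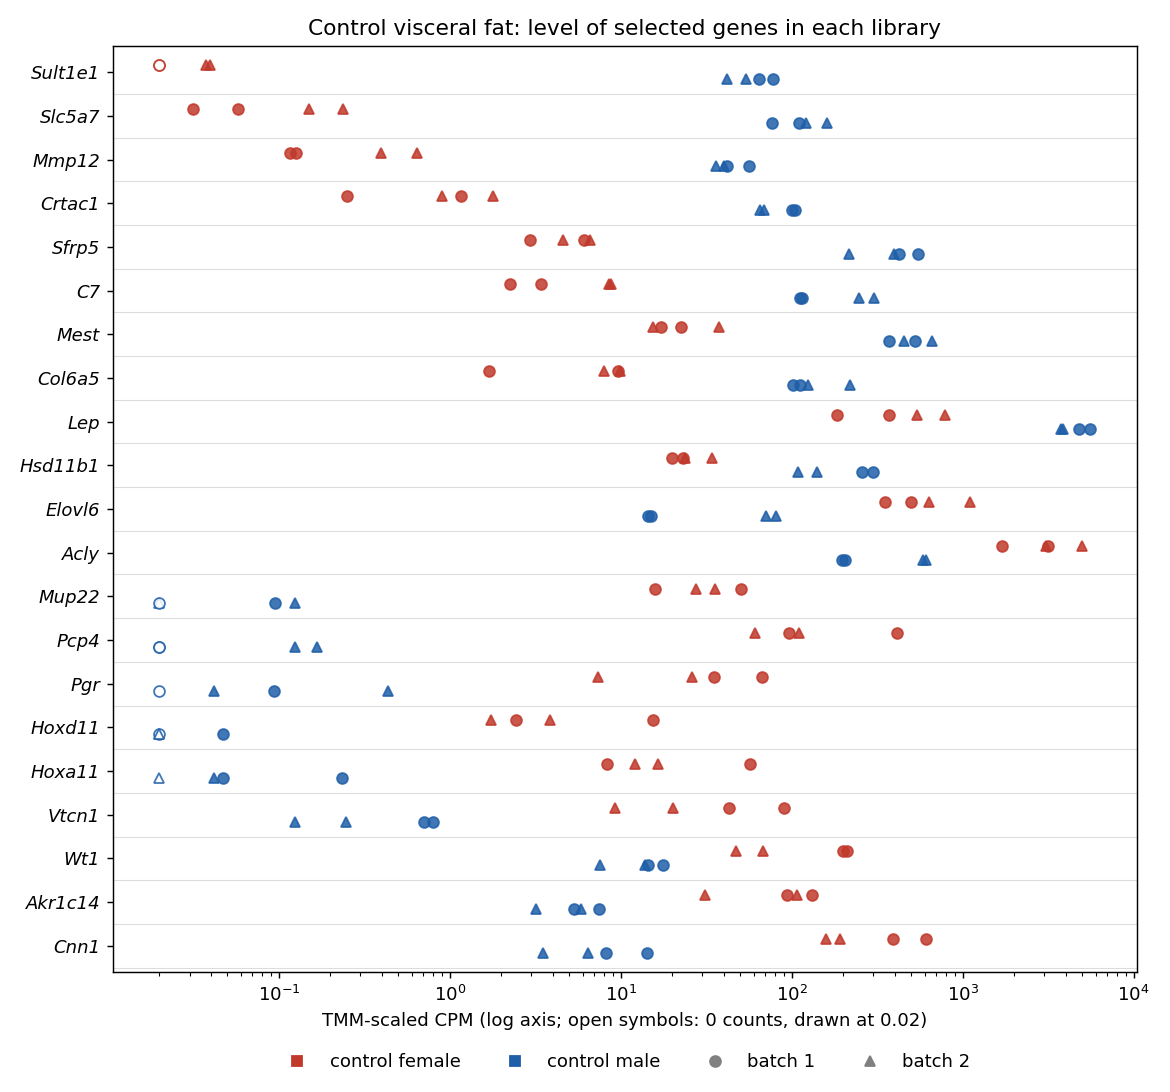
TMM-scaled CPM (log axis) of 21 genes in each control library, females in red and males in blue, circles for batch 1 and triangles for batch 2; open symbols are libraries with 0 counts. The sexes separate in every row, with Lep at 184 to 789.6 CPM in females and 3739 to 5557 CPM in males. Several of these genes were named by a rule that required this.

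Adipocyte identity genes as a whole did not separate by sex. Of 25 mature adipocyte genes, 7 were called male-higher and 1 female-higher, but their median log2 fold change was 1.80 within batch 1 and −0.41 within batch 2. Adipoq did not pass the test (log2 fold change 0.11, adjusted p = 0.843), nor did Plin1 (log2 fold change 0.72, adjusted p = 0.181) or Pparg, the nuclear receptor that drives fat cell differentiation (log2 fold change 0.33, adjusted p = 0.463). Plin4, a lipid droplet coat gene, was called male-higher at 146, 3051, 346 and 3932 CPM in females and 2641, 5101, 2829 and 6048 CPM in males, with overlapping libraries and an adjusted p of 0.183 in batch 2 alone. Leptin had the largest difference of the 25 genes, and 2 members in all were male-higher in each batch alone.

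De novo lipogenesis, the making of fatty acids from sugar, was female-higher. Of 23 autosomal genes tested, 11 were called female-higher and 1 male-higher, beside 13.7% and 13.8% of all genes. In each batch alone, 9 were female-higher. The median log2 fold change was −0.84 (−1.89 in batch 1 and −1.02 in batch 2). Elovl6, which elongates palmitate (chromosome 3, 129532386 to 129638495), was at 349, 638, 501 and 1103 CPM in females and 14.4, 70.5, 15.1 and 81.3 CPM in males (log2 fold change −4.00, SE 0.59, adjusted p = 0.000177). Acly, which makes cytosolic acetyl-CoA from citrate, was at 1692, 3086, 3143 and 4963 and 196, 582, 204 and 613 CPM (log2 fold change −3.11, SE 0.48, adjusted p = 0.000236). Acaca, the acetyl-CoA carboxylase that commits it to fatty acid synthesis, was at 637, 1350, 1264 and 1975 and 161, 226, 212 and 252 CPM (log2 fold change −2.61, SE 0.40, adjusted p = 0.000218). For each of these 3 genes even female replicate 1, which was low in adipocyte transcript, exceeded every male library.

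Further lipogenic genes had the same direction. The transketolase gene Tkt, of the pentose phosphate pathway, was at 1863, 2574, 3633 and 3229 CPM in females and 436, 530.3, 522 and 712 CPM in males (log2 fold change −2.36, adjusted p = 0.000165). Thrsp, a lipogenic cofactor, was at 1639, 3032, 3462 and 2126 and 424, 587, 990.2 and 896 CPM (log2 fold change −1.82, adjusted p = 0.0043). Fasn, fatty acid synthase, was at 2681, 17880, 5332 and 21010 CPM in females and 443, 4823, 675 and 6122 CPM in males, where the libraries overlapped across batches (log2 fold change −2.18, SE 0.57, adjusted p = 0.00913). Scd1, the stearoyl-CoA desaturase, did not pass the test (log2 fold change −0.067, adjusted p = 0.909), nor did the regulator Srebf1 (log2 fold change −0.56, adjusted p = 0.187), while the glucose-sensing regulator Mlxipl was called at −0.85 (adjusted p = 0.0492). Cholesterol synthesis, under related control, had 5 of 22 genes female-higher and 2 male-higher, with 0 called in each batch alone.

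Genes of fatty acid uptake, oxidation and oxidative phosphorylation gave few calls over both batches together. Cpt1a, which admits fatty acids to mitochondria, was at 62.6, 73.3, 50.1 and 74.5 CPM in females and 122, 167, 126 and 168 CPM in males (log2 fold change 1.16, SE 0.14, adjusted p = 2.89e-05), without overlap and called in each batch alone. It was 1 of 5 male-higher genes among 28 for fatty acid uptake and oxidation, with 0 female-higher, beside 13.8% and 13.7% of all genes. The list's median log2 fold change was −0.087 in batch 2 alone, and 1 member was called there and without female replicates 1 and 3. Angptl4, a secreted inhibitor of lipoprotein lipase, was at 42, 216, 90.5 and 334 and 1329, 451, 1380 and 730.2 CPM (log2 fold change 2.58, adjusted p = 0.00507), with 4.31 in batch 1 and 1.11 in batch 2 (adjusted p = 0.16). Of 23 lipolysis and lipid droplet genes, 7 were called male-higher and 3 female-higher, beside 13.8% and 13.7% of all genes. In each batch alone, 1 was male-higher and 0 female-higher. Their median log2 fold change was 0.72, but −0.051 in batch 2 alone. Among the 3 female-higher was Adra2a, the anti-lipolytic adrenergic receptor, at 8.41, 2.3, 6.07 and 2.48 against 1.47, 1.61, 0.935 and 1.08 CPM (log2 fold change −1.72, adjusted p = 0.00563). Of 34 oxidative phosphorylation genes, 0 were called male-higher and 2 female-higher.

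Insulin signalling genes mostly did not pass the test, with 2 of 22 male-higher and 3 female-higher, beside 13.8% and 13.7% of all genes. Irs1, the insulin receptor substrate, was an exception at 101, 164, 113 and 200.1 CPM in females and 36, 37.2, 53.3 and 72.9 CPM in males (log2 fold change −1.53, SE 0.23, adjusted p = 0.000177), without overlap. The insulin receptor gene Insr had a log2 fold change of −0.11 (adjusted p = 0.631). Ucp1, the uncoupling protein of thermogenic fat, was at 9.4, 13.2, 0 and 25.6 CPM in females and 0, 0.186, 0.187 and 0.167 CPM in males (log2 fold change −6.64, SE 1.79, adjusted p = 0.0107). Female replicate 3 had 0 counts of Ucp1, and the adjusted p in batch 1 alone was 0.159.

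Macrophage genes were male-higher. Of 24 tested, 11 were called male-higher and 0 female-higher, beside 13.8% and 13.7% of all genes. Of 20 lipid-associated macrophage genes, those of macrophages that take up adipocyte lipid, 12 were male-higher and 0 female-higher. Without female replicates 1 and 3, 2 macrophage and 5 lipid-associated macrophage genes were male-higher. Mmp12, the macrophage elastase, was at 0.116, 0.396, 0.126 and 0.639 CPM in females and 56.4, 40.1, 41.8 and 36.1 CPM in males (log2 fold change 7.27, SE 1.24, adjusted p = 0.000488). Itgax, which encodes CD11c, was at 5.51, 4.16, 2.64 and 4.55 and 50.6, 23.2, 30 and 21.8 CPM (log2 fold change 2.96, SE 0.59, adjusted p = 0.00156), and Atp6v0d2, a lysosomal proton pump subunit, at 1.22, 1.78, 1.64 and 1.77 and 12.3, 12.1, 7.85 and 10.04 CPM (log2 fold change 2.74, adjusted p = 0.00161). The pan-macrophage gene Cd68 was at 14.9, 25.4, 20.4 and 19.97 CPM in females and 143, 55.3, 104 and 46.3 CPM in males (log2 fold change 2.09, SE 0.34, adjusted p = 0.000382). None of these 4 genes overlapped between the sexes, and all 4 were called in each batch alone. The median of the macrophage list was 0.90, but 0.23 in batch 2 alone, where C1qb, a complement gene of tissue macrophages, had a log2 fold change of 0.43 (adjusted p = 0.376).

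Several chemokine genes were also male-higher. Ccl2, which recruits monocytes, was at 1.1, 2.93, 2.83 and 5.23 CPM in females and 49, 12.9, 41.4 and 10.3 CPM in males (log2 fold change 3.23, SE 0.80, adjusted p = 0.00645), with an adjusted p of 0.195 in batch 2 alone. The calprotectin gene S100a8 was at 0.464, 0.634, 0.189 and 0.564 and 17.1, 3.72, 11.6 and 5.96 CPM (log2 fold change 4.05, adjusted p = 0.000473), and was called in each batch. Among inflammatory cytokine and chemokine genes, 7 of 25 were male-higher and 1 female-higher, against 1 and 0 without female replicates 1 and 3. S100a8 was the 1 gene called among 11 neutrophil and mast cell genes tested.

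Lymphocyte genes gave few calls, beside 13.8% male-higher and 13.7% female-higher of all genes. Pan T cell genes had 0 of 19 male-higher and 2 female-higher, regulatory T cell genes 0 and 1 of 16, type 1 and cytotoxic lymphocyte genes 0 and 0 of 18, and B cell genes 1 and 0 of 22. The T cell receptor constant gene Trac was at 7.6, 5.39, 22.7 and 5.34 CPM in females and 1.28, 1.98, 2.66 and 3.96 CPM in males (log2 fold change −1.93, adjusted p = 0.0331), with an adjusted p of 0.394 in batch 2 alone. Foxp3, the X-linked regulatory T cell regulator whose locus drives the Cre, was at 0.522, 0.674, 0.126 and 0.226 and 0.663, 0.248, 0.421 and 0.791 CPM and did not pass the test (adjusted p = 0.598). Il33, the alarmin that sustains fat regulatory T cells, was called female-higher at 22.1, 19.8, 15 and 24.5 against 10.9, 14.3, 13 and 9.87 CPM (log2 fold change −0.75, SE 0.23, adjusted p = 0.0236), though not in either batch alone. At these low levels, differences of lymphocyte genes are only coarsely resolved. Interferon response genes had 0 of 28 male-higher and 1 female-higher, but the batches differed in direction. In batch 1 alone 13 were male-higher and 0 female-higher, with a median log2 fold change of 0.595. In batch 2 alone 0 were male-higher and 1 female-higher, with a median of −0.496.

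Complement genes split by component. C7, which joins the membrane attack complex, was at 2.26, 8.52, 3.43 and 8.73 CPM in females and 111, 303, 114 and 246 CPM in males (log2 fold change 5.09, SE 0.48, adjusted p = 3.94e-06). C4b, of the classical pathway, was at 128, 476, 443 and 783 and 1661, 2076, 1483 and 2154 CPM (log2 fold change 2.11, adjusted p = 0.000149), although C4a next to it is a near-copy and reads may be divided between them. Cfb, of the alternative pathway, was at 75, 279, 102 and 212 and 694, 595, 667 and 593 CPM (log2 fold change 2.09, adjusted p = 0.000296). Of 23 complement genes, 11 were called male-higher and 5 female-higher, beside 13.8% and 13.7% of all genes. The female-higher included C3. Without female replicates 1 and 3, 5 were male-higher and 4 female-higher.

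Vessel and matrix genes differed as well. Endothelial genes were male-higher at 13 of 22 tested, with 0 female-higher, and 3 of the 13 in each batch alone. Without female replicates 1 and 3, 0 of the 22 were called, with a median log2 fold change of 0.41 in place of 0.75. Cdh5, the endothelial cadherin, was at 61.6, 237, 92.5 and 215 CPM in females and 362, 355, 522 and 352 CPM in males (log2 fold change 1.53, SE 0.30, adjusted p = 0.00139), and female replicates 1 and 3 were the lowest. Collagen and matrix genes split, with 13 of 43 male-higher and 8 female-higher, beside 13.8% and 13.7% of all genes. Col6a5, a type VI collagen chain, was at 9.57, 8.01, 1.7 and 9.93 and 112, 218, 101 and 125 CPM (log2 fold change 4.28, SE 0.51, adjusted p = 2.7e-05). Timp4, a metalloproteinase inhibitor, was at 112, 114, 60.5 and 43.6 and 706, 208, 828 and 308 CPM (log2 fold change 2.37, adjusted p = 0.000373). Cell cycle genes were male-higher at 12 of 23 with 0 female-higher, but 0 were called in each batch alone and 1 without female replicates 1 and 3. The proliferation marker Mki67 was at 2.67, 14.5, 1.76 and 6.02 CPM in females and 10.04, 19.2, 5.51 and 20.8 CPM in males.

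Large male-higher differences outside the lists included Slc5a7, the high-affinity choline transporter, at 0.058, 0.238, 0.0315 and 0.15 CPM in females and 109.5, 160.3, 76.5 and 122 CPM in males (log2 fold change 10.01, SE 1.22, adjusted p = 3.45e-05). Crtac1, a secreted matrix glycoprotein, was at 1.16, 1.78, 0.252 and 0.903 and 104, 65, 100.5 and 69 CPM (log2 fold change 6.41, adjusted p = 6.62e-06). Lrg1, an acute-phase glycoprotein, was at 22.9, 31.1, 76 and 50.5 and 1189, 339, 1212 and 289 CPM (log2 fold change 3.78, adjusted p = 1.29e-05). The rule that named these 3 genes required that the sexes not overlap, and each was called in both batches. Acsbg1, an acyl-CoA synthetase, was at 1.1, 1.47, 0.724 and 1.62 and 7.72, 108, 3.88 and 54.7 CPM, so that its male values rested on batch 2, and neither batch alone passed the test (adjusted p = 0.15 and 0.0566).

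Developmental patterning genes, which keep a record of body position, were female-higher. Of 49 tested, 24 were called female-higher and 5 male-higher, beside 13.7% and 13.8% of all genes. In each batch alone 11 were female-higher, and 15 were without female replicates 1 and 3. The posterior Hox genes differed most. Hoxa11 was at 8.35, 12.2, 57.1 and 16.4 CPM in females and 0.0473, 0, 0.234 and 0.0417 CPM in males (log2 fold change −8.19, SE 1.03, adjusted p = 4.61e-05). Hoxd11, with 1 count over the 4 males, was at 2.44, 1.74, 15.4 and 3.87 CPM in females, a female to male ratio of 557 (exact counting interval 99.7 to 22100, adjusted p = 3.53e-05). Hoxd10 was at 16.2, 6.58, 79.9 and 12.2 and 1.28, 0.558, 1.5 and 0.458 CPM (log2 fold change −4.72, SE 0.59, adjusted p = 4.03e-05). By contrast, Hoxc8 and Hoxc5 were among the male-higher members, with fold changes under 2. Wt1, a factor of mesothelium and gonadal stroma, was at 200.2, 47.2, 210.5 and 68.2 CPM in females and 17.8, 13.9, 14.3 and 7.54 CPM in males (log2 fold change −3.15, SE 0.36, adjusted p = 2.08e-05). Gata6 was at 46.7, 39.6, 79.5 and 57 and 16.7, 16.6, 17.3 and 11.5 CPM (log2 fold change −1.84, SE 0.18, adjusted p = 5.13e-06). None of these 5 genes overlapped between the sexes, and all were called in each batch alone.

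Smooth muscle genes were female-higher at 10 of 13, with 2 male-higher, and the sums above show the excess in all 4 female libraries. The calponin gene Cnn1 was at 388, 192, 608 and 159 CPM in females and 8.14, 6.45, 14.3 and 3.5 CPM in males (log2 fold change −5.32, SE 0.91, adjusted p = 0.000488). The transgelin gene Tagln was at 1762, 814, 4031 and 615 and 253, 68.1, 299 and 72.5 CPM (log2 fold change −3.37, adjusted p = 8.42e-05). The 2 male-higher members, Rgs5 and Notch3, are known from pericytes of small vessels. Of 10 nerve and glia genes, 4 were female-higher and 0 male-higher. Of 17 mesothelial genes, 3 were female-higher and 0 male-higher, beside 13.7% and 13.8% of all genes.

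Of the 21 female reproductive tract genes, 10 were called female-higher and 0 male-higher, against 5 and 0 without female replicates 1 and 3. Ptgfr, the prostaglandin F receptor, was at 15.4, 13.3, 18.1 and 22.5 CPM in females and 1.28, 2.17, 2.8 and 2.42 CPM in males (log2 fold change −3.00, SE 0.28, adjusted p = 3.81e-06), present in all 4 female libraries. Ovgp1 was called with a log2 fold change of −8.07 (adjusted p = 0.00453), but female replicate 1 alone carried it: without that library the log2 fold change was 0.011 (adjusted p = 0.981). Whether Hoxa11, Wt1, Pgr and the smooth muscle genes came from fat or from adjoining reproductive tissue was not tested. In females of batch 2, Hoxa11 stood at 12.2 and 16.4 CPM and Pgr at 7.33 and 26.1 CPM. Their smooth muscle genes summed to 4926 and 3861 CPM, against 1160 to 1740 CPM in males. Pcp4, a small calmodulin-binding protein of neurons and smooth muscle, was at 96.8, 60.8, 411 and 109.7 CPM in females and 0, 0.124, 0 and 0.167 CPM in males (log2 fold change −10.99, adjusted p = 6.12e-05). Vtcn1, the checkpoint ligand B7-H4, was at 43.2, 9.23, 90.5 and 20.1 and 0.71, 0.248, 0.794 and 0.125 CPM (log2 fold change −6.33, adjusted p = 3.31e-05).

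**Figure D4:**
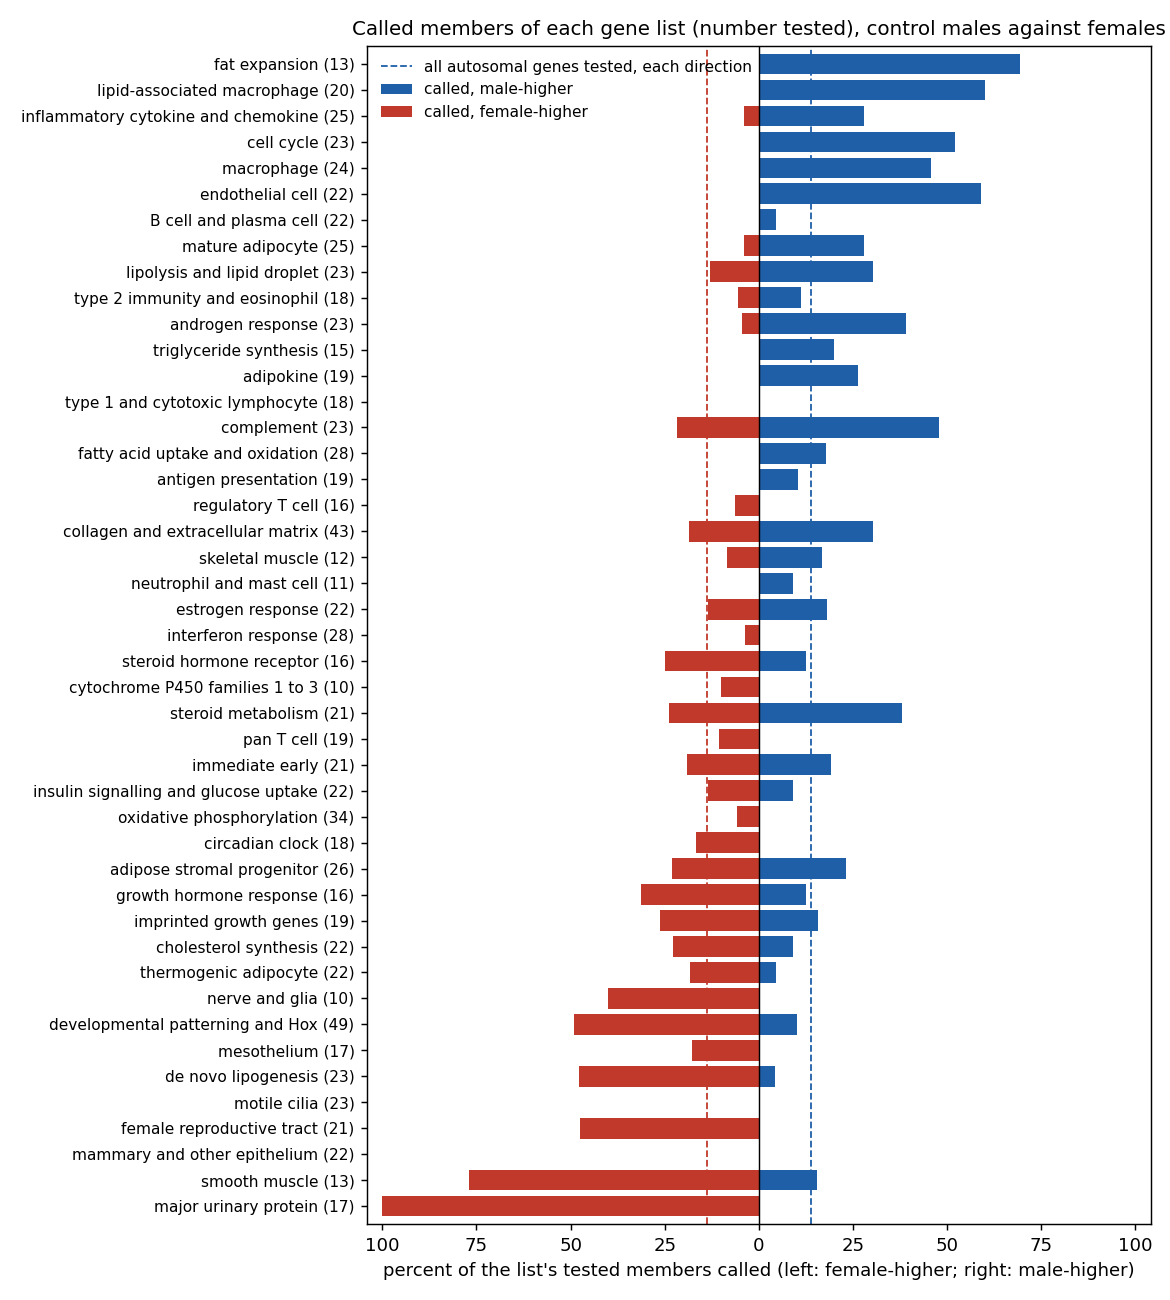
Percent of each list's tested autosomal members called male-higher (blue, right) or female-higher (red, left), for lists with 10 or more members tested (number in parentheses), ordered by median log2 fold change. Dashed lines mark all autosomal genes tested, 13.8% male-higher and 13.7% female-higher. Fat expansion and lipid-associated macrophage genes lie at the male end, and major urinary protein and smooth muscle genes at the female end.

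The sex difference was also measured in the 2 knockouts, which share no libraries with the controls. In PpargFoxp3cre mice 1458 autosomal genes (8.76%) were called between the sexes, and 1236 of them were called in the same direction in controls, which is 84.8% of the PpargFoxp3cre calls and 27% of the control calls. In TbetFoxp3cre mice 1545 genes (9.29%) were called, 1163 of them in the same direction in controls (75.3% and 25.4%). No gene was called in opposite directions. In all 3 genotypes 756 genes were called in 1 direction, 248 male-higher and 508 female-higher. These included Sult1e1, with log2 fold changes of 11.15 in controls, 11.90 in PpargFoxp3cre and 9.64 in TbetFoxp3cre mice, where the control value is fitted from 2 female counts. Hsd11b1 (2.85, 2.19 and 2.06), C7 (5.09, 4.52 and 4.13) and Hoxd10 (−4.72, −4.87 and −4.77) were also called in all 3.

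Sfrp5 and Mest were called in controls but in neither knockout. Sfrp5 had log2 fold changes of 6.25, 1.91 and 1.78, and Mest of 4.45, 1.05 and 1.24, in the same order of genotypes, with adjusted p between 0.105 and 0.177 in the knockouts. The difference from control did not pass the test for Sfrp5 (adjusted p = 0.631 for PpargFoxp3cre and 0.181 for TbetFoxp3cre) or Mest (adjusted p = 0.435 and 0.138). The lipogenic genes were female-higher in PpargFoxp3cre mice and near even in TbetFoxp3cre mice: Elovl6 had −4.00, −2.88 and 0.51, and Acly −3.11, −2.30 and 0.28. The list median was −0.84 in controls, −0.54 in PpargFoxp3cre and 0.43 in TbetFoxp3cre mice. For Elovl6, Acly and Tkt the adjusted p of the difference between control and TbetFoxp3cre was 0.0979 in each case. Across all autosomal genes, 0 differences from control were called for PpargFoxp3cre (1039 at an unadjusted p under 0.05, and 58 called by DESeq2). For TbetFoxp3cre 1 was called (1938 at an unadjusted p under 0.05, and 216 called by DESeq2).

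That gene was Abcg1, the exporter of cholesterol from macrophages and adipocytes (chromosome 17, 31057694 to 31117984). Control females had 33, 16.1, 29.9 and 20.8 CPM and control males 56.8, 38.7, 56.7 and 48.2 CPM, male-higher without overlap (log2 fold change 1.02, SE 0.16, adjusted p = 0.000297). In TbetFoxp3cre mice females averaged 65.6 ± 3.50 CPM and males 47.3 ± 6.15 CPM (SD, n = 4), a log2 fold change of −0.48 (adjusted p = 0.0669). The difference between the genotypes was 1.501 on the log2 scale (adjusted p = 0.0405 in edgeR's quasi-likelihood test). The call was lost under RLE scaling (adjusted p = 0.0549), without a batch term (0.168), with the replicate number as a block (0.107) and when any 1 of 6 of the 8 control libraries was left out (0.0578 to 0.197). It held without female replicate 1 or male replicate 2 and in DESeq2, with differences from 1.351 to 1.634 over these alternatives.

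**Figure D5:**
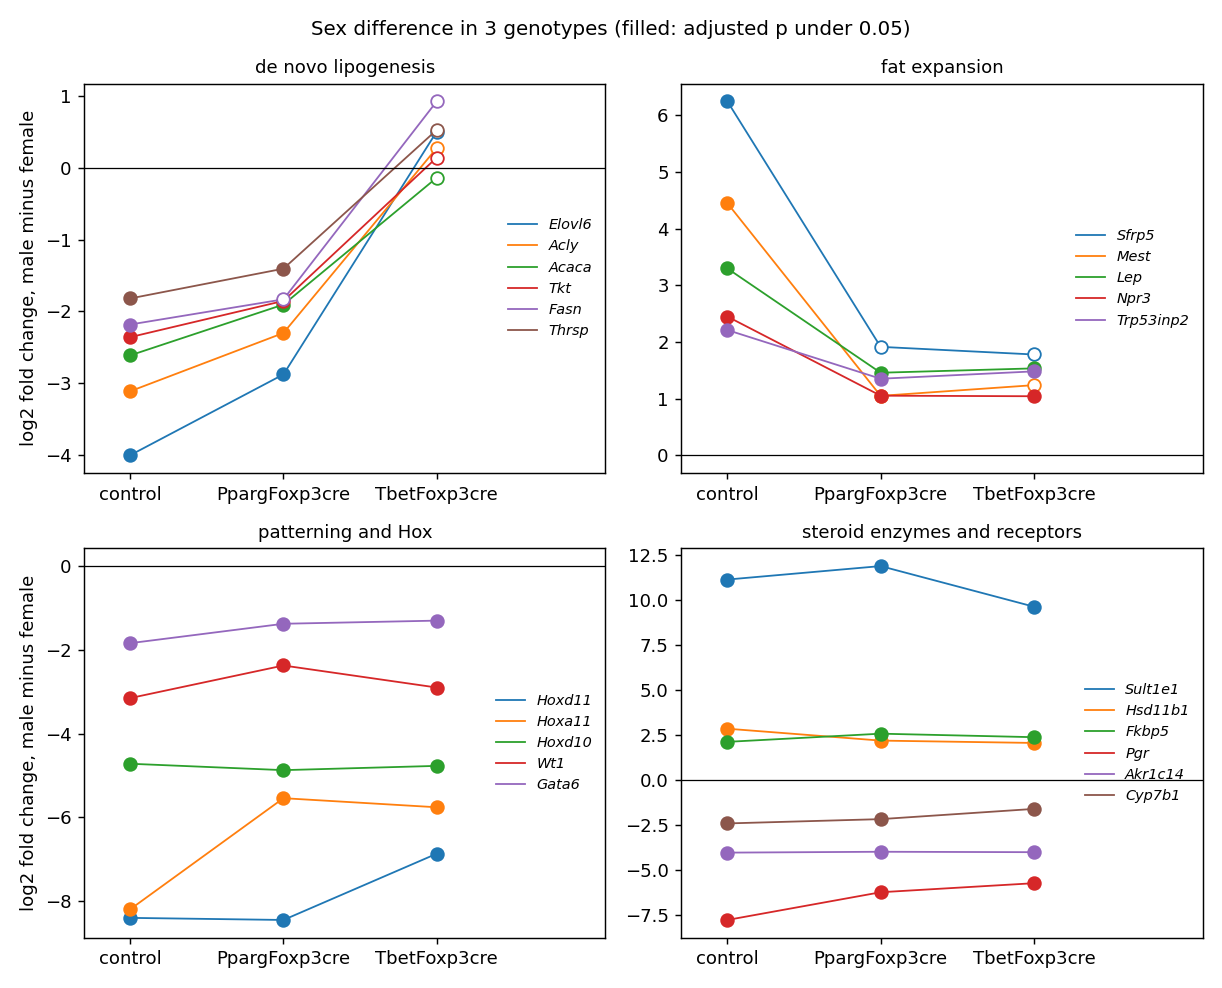
Log2 fold changes (male minus female) of genes from 4 groups in control, PpargFoxp3cre and TbetFoxp3cre mice, filled where the adjusted p was under 0.05 within that genotype. Lines join 1 gene; Elovl6 went from −4.00 in controls to 0.51 in TbetFoxp3cre mice, while Hoxd10 stayed between −4.87 and −4.72.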

How the data were processed

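The authors deposited 1 table of raw counts for 27179 genes (the submitters' processing notes name featureCounts and the builds GRCm38 and mm10; aligner, annotation and tool versions: not given in the sources used here) and log2 FPKM tables, also the authors' values, which look quantile-normalized and served for 1 alternative only. Genes without a symbol (3.79%) held 0.433% of counts. edgeR 4.0.16 (R 4.3.3) was run on the counts: filterByExpr by group (17824 genes tested, 16639 autosomal), TMM scaling, and quasi-likelihood F tests (robust) on a model of all 24 libraries in 6 groups with batch (17 residual degrees of freedom), Benjamini-Hochberg over all genes tested, called under 0.05. limma 3.58.1 and DESeq2 1.42.0 gave alternatives. Positions come from RefSeq (GRCm38.p6), matched by Entrez identifier for 25275 genes; promoters were matched by symbol. Counting intervals (95%) and the floor of 3 counts cover counting error only.

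The members and the 49 lists (1020 genes, 879 tested autosomal) were chosen with earlier results of these data known. The text names the 15 largest called, non-overlapping genes in each direction whose mean log2 CPM was 1 or more, up to 4 called members with the smallest adjusted p per list (up to 2 by values if none), and steroid receptor genes including Esr1 and Pgr, leaving out predicted genes, clones, pseudogenes and receptor segments; not every gene so named is reported here. Named outside it, after their values were seen, were Adipoq, Plin1, Pparg, Fasn, Scd1, Srebf1, Mlxipl, Insr, Foxp3, Ovgp1, Foxj1, Epcam, Prm2, Crisp1, Abcg1, the Mup genes beyond Mup1, Mup2, Mup3, Mup12, Mup16, Mup18, Mup19 and Mup22, and the list members C3, Socs2, Cux2, Hoxc5, Hoxc8, Notch3 and Rgs5. The script was tested on simulated data for the sex contrast with 17541 genes: 57 of 100 genes changed 2-fold and 89 of 100 changed 4-fold were recovered, with 6 false calls.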

Additional observations from a re-analysis of the deposited data

Results flagged for a closer look

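For the genes and summed lists named here, 208 groups of 4 control libraries of 1 sex were examined. A library far from the other 3 was one with Dixon's ratio above its 95% critical value. Chance gives about 1 in 20 for normally spread values, which is no fair reference here. Ovgp1, Foxj1, Epcam, Prm2 and Crisp1 were named after their values were seen, and some groups held single or few counts. Such a library was found in 22 groups (10.6%). Female replicate 1 accounted for 7 of these: Ovgp1 (4629 CPM), Foxj1 (376.4 CPM), Epcam (148.3 CPM), the ciliary dynein gene Dnaic2 (87.1 CPM), the epithelial factor Grhl2 (27.9 CPM), and the summed motile cilia (1509 CPM) and female reproductive tract (5287 CPM) lists. Female replicate 3 accounted for 6: Pcp4 (410.6 CPM), Hoxd10 (79.9 CPM), Hoxa11 (57.1 CPM), Mup14 (26.5 CPM), Trac (22.7 CPM) and Hoxd11 (15.4 CPM). In each of these 6 the other 3 female libraries still lay above every male library.

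Female replicate 2 was low for Socs2 (21.3 CPM), below male replicate 3. In males, replicate 1 was high for Prm2 (148.6 CPM), replicate 3 for Cdh5 (521.8 CPM) and Crisp1 (29.0 CPM), and replicate 4 was low for Gata6 (11.5 CPM). Ucp1 was at 0 CPM in male replicate 1. The other male values far from the rest were single or few counts: Hoxd11 in replicate 1 (0.0473 CPM), Mup12 in replicate 3 (0.0467 CPM) and Mup18 in replicate 4 (0.208 CPM).

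Abcg1 was the 1 gene called by edgeR's interaction term for a sex difference that differed between genotypes, by 1.501 on the log2 scale (control minus TbetFoxp3cre, adjusted p = 0.0405). The adjusted p was 0.0549 under RLE scaling, 0.168 without a batch term and 0.107 with the replicate block, and DESeq2 called 216 genes in this comparison. Males were higher in controls and females had the higher mean in TbetFoxp3cre mice.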

How the results depend on the processing

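The count of 4572 autosomal calls stayed within 1.5 times of that under RLE, upper quartile or total scaling, DESeq2, voom, the log2 FPKM values, other filters, the batch of the source name, batch 1 alone and adjustment over autosomal genes, from 4062 to 5599. It was 1774 (879 male-higher, 895 female-higher) with the 8 control libraries alone, 2253 (1089 and 1164) with no batch term, 6878 (3461 female-higher) with a batch term within each sex, and 1230 (605 and 625) in batch 2 alone. Leaving out 1 library at a time gave 2910 to 5014 calls, 1506 to 2449 male-higher and 1404 to 2565 female-higher. Among alternatives added after seeing the data, leaving out female replicates 1 and 3 gave 1819 (733 and 1086), and leaving out female 1 and male 1 gave 2815 (1484 and 1331). Leaving out each library in turn kept 2347 of the calls in every case. The share of male-higher calls, 50.3%, was 42.6% with library totals only and 40.3% without female replicates 1 and 3. The shift of the median under library totals was −0.104.

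Whether replicate numbers pair the samples could not be settled. The correlations of deviations were 0.00874, −0.0876, 0.397 and 0.337, and after batch 0.198, −0.34, 0.198 and −0.34. With 2 libraries per sex and batch, the latter are bound to be equal within a batch. With the replicate number as a block in place of batch 4246 genes were called. The differences between sex contrasts were unstable: for PpargFoxp3cre 0 were called under RLE scaling, without batch, with the replicate block and without each control library (0 to 0), and 58 by DESeq2. For TbetFoxp3cre the count of 1 became 0 under RLE scaling, without a batch term and with the replicate block, 216 by DESeq2, and 0 to 8 when 1 control library was left out. The cause was not tested.

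Of the called genes named, Ovgp1 turned direction: it had a log2 fold change of 0.43 in batch 2 alone, from −8.73 to 0.011 with 1 library left out (0.011 without female replicate 1), 0.15 without female replicates 1 and 3, and 0.036 without female 1 and male 1. Many other named genes kept their direction but lost the call. Of 174 called, including some not reported here, 50 lost it with the 8 control libraries alone. In batch 2 alone 80 lost it, in batch 1 alone 32, and without female replicates 1 and 3, 63. Genes not tested under an alternative are not in these counts. Depth limits the low genes: in female replicate 1, the shallowest, 1 count was worth 0.058 CPM, as for Uty.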

Other observations

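Imprinted growth genes were called in both directions, 3 of 19 male-higher and 5 female-higher, beside 13.8% and 13.7% of all genes. Mest was among the male-higher. Meg3 was female-higher, at 50.01, 131, 59.4 and 234 CPM in females and 21.6, 88.4, 20.2 and 65.8 CPM in males (log2 fold change −1.31, SE 0.26, edgeR adjusted p = 0.00156). So was H19, at 3.25, 1.15, 6.51 and 4.14 and 0.379, 0.992, 0.234 and 0.25 CPM (log2 fold change −3.02, adjusted p = 0.0025). Meg3 also differed strongly by batch, and its libraries overlapped between the sexes, while H19 did not overlap. Stromal progenitor genes split evenly, with 6 of 26 in each direction. Zfp423, a preadipocyte commitment factor, was male-higher at 15.2, 42.9, 19.98 and 42.9 against 76, 87.6, 80.05 and 70.1 CPM (log2 fold change 1.45, adjusted p = 0.000473), and Cd55, which marks early progenitors, was female-higher at 61.8, 101, 65.2 and 149 against 37, 52.9, 39.3 and 60.7 CPM (log2 fold change −0.94, adjusted p = 0.00164).

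Among circadian clock genes, 3 of 18 were female-higher and 0 male-higher, beside 13.7% and 13.8% of all genes. Npas2, a partner of Bmal1 in the clock, was at 22.8, 17.9, 22.2 and 13.9 CPM in females and 2.98, 5.95, 2.8 and 7.87 CPM in males (log2 fold change −2.07, SE 0.54, adjusted p = 0.00881) and was called in each batch alone. The labels give no time of day for tissue collection. The blood genes Hba-a1 and others had 0 of 5 called, and Hba-a1 stood at 66.7, 189, 248 and 57 CPM in females and 200.3, 157, 356 and 254 CPM in males.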
